A study of Homo sapiens with 2 samples.

Results

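Classical protein tyrosine phosphatases were taken as every gene on the arrays whose symbol in the files was PTPR plus a letter with an optional digit, or PTPN plus digits, with nothing after it. This gave 37 genes with 73 transcript rows, out of 23595 genes and 45033 transcript rows on the arrays. Of the 37 genes, 21 were receptor type (PTPR, 43 rows) and 16 non-receptor type (PTPN, 30 rows). The rule used names only and no measured value. The RNA came from Panc1 cells, a line grown from a human pancreatic ductal tumour. The labels call the cells pretreated for 24 h, with clofibrate or with DMSO, the solvent control. Any step after that and before RNA was taken is not described here. Clofibrate lowers blood lipids and acts through PPARalpha, a nuclear receptor. The clofibrate dose is not given in the sources used here. Total RNA of each culture was put on 1 NimbleGen array, so there was 1 clofibrate array and 1 DMSO array. No difference below therefore has a replicate check, no test was run, and precision is limited by having 2 arrays.

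These enzymes take phosphate off tyrosine residues, using a cysteine held in a conserved signature motif, and so act against the tyrosine kinases. Receptor-type members cross the plasma membrane and mostly carry adhesion-like ectodomains with immunoglobulin, fibronectin or MAM repeats. Non-receptor members lie in the cytosol or on inner membranes and are placed by SH2, FERM, PDZ, Sec14 or proline-rich regions. In epithelial cells both kinds act on growth factor receptors, Src family kinases, catenins and focal adhesion proteins.

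Levels are log2 intensities, a gene's level is the mean of its rows, and differences are log2 values, clofibrate minus DMSO. The random probes, a measure of background, read 5.59 on the clofibrate array and 5.61 on the DMSO array on the log2 scale. A gene is called bright where its mean over both arrays reached the median gene's level (8.51 on the log2 scale, 364 on the linear scale), and dim otherwise. By this rule 16 of the 37 phosphatases were bright, with PTPN3 (mean 8.74) just inside and PTPN2 (mean 8.49) just outside. Of the 73 rows, 56 were above the random probes on both arrays, 12 were at or below them on both, and 5 were above on 1 array only. Among all transcript rows 8.65% were at or below them on both arrays. As a yardstick within this pair of arrays, the SD of differences among genes of similar brightness is given and called the like-level SD. It mixes noise with any differences due to treatment, and pools genes of 1 row with genes averaged over several. It covers the spread across genes, not between cultures. Each row has its own probes, so levels of different genes can be compared only roughly. This also limits the split into bright and dim and the summed levels of markers.

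Among keratins of ductal epithelium, KRT8 (9.64 with clofibrate, 9.64 with DMSO) and KRT18 (9.51 and 9.41) were bright, KRT7 (8.18 and 8.22) was dim, and KRT19 (5.12 and 5.65) lay near the random probes. Of 10 duct and epithelial markers, 8 were above the random probes on both arrays, with summed linear levels of 2958 with clofibrate and 3011 with DMSO, and CFTR was below them on both arrays. Some leukocyte markers also read above background (11 of 13, summed levels 2419 with clofibrate and 2278 with DMSO), while CD3E and LCP2 were below it on each. The part of such RNA or of cross-hybridisation in the values below was not tested.

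**Figure D1:**
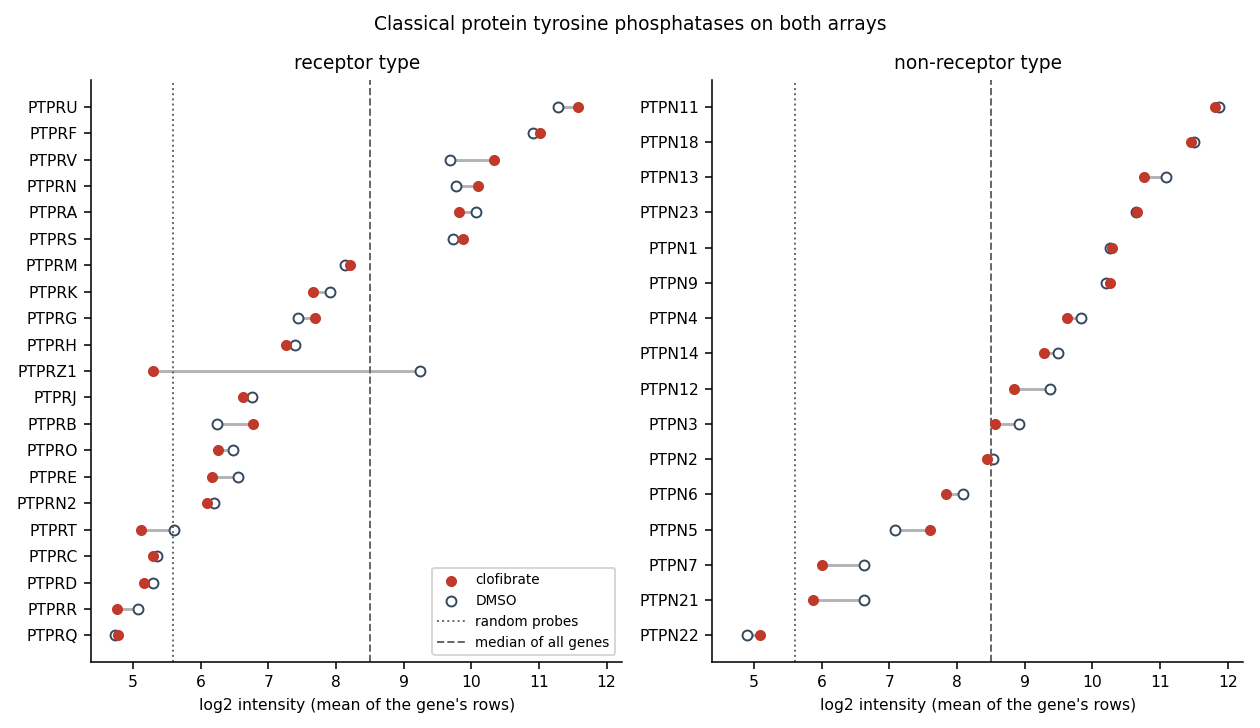
Log2 intensity of each of the 37 phosphatase genes (mean of its rows) on the clofibrate array (filled red) and the DMSO array (open), with receptor type at left and non-receptor type at right; the dotted line marks the random probes and the dashed line the median of all genes. For PTPRZ1 alone the points lie on opposite sides of both lines, at 5.29 with clofibrate and 9.24 with DMSO.

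Most phosphatases differed little between the arrays, and PTPRZ1 stood far from the others. Of the 16 bright members, 1 was at least 1.5-fold higher with clofibrate (PTPRV), against 1.31% of all bright genes, and 0 were at least 1.5-fold lower, against 1.32%. None of the 16 was 2-fold higher (0.136% of all bright genes) or 2-fold lower (0.110%). Bright receptor-type genes tended to lie above 0 and bright non-receptor genes below it: 5 of 6 receptor-type members were above 0 (52.1% of all bright genes) with a median of 0.22, and 7 of 10 non-receptor members were below 0 (47.9% of all bright genes) with a median of -0.13. The median of all bright genes was 0.01. The medians of both types thus differed by 0.35, which is a description of 16 genes on 1 pair of arrays. The level filter averages both arrays, so a large difference can itself decide who is bright: PTPRZ1, at 9.24 with DMSO, was above the cut on that array and counts as dim through its clofibrate value of 5.29. With genes called bright where either array reached the cut, PTPRZ1 and PTPN2 joined. Both reached the cut on the DMSO array only (PTPN2 at 8.53, against 8.45 with clofibrate), so both had to lie below 0. In this wider set 5 of 7 receptor-type members were above 0 (median 0.15) and 8 of 11 non-receptor members below it (median -0.08). The medians then differed by 0.23, with 1 member at least 1.5-fold higher, against 1.91% of all such genes, and 1 lower (PTPRZ1), against 1.86%.

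The dim members did not show that split. Of 15 dim receptor-type genes 11 were below 0, with a median of -0.13, and of 6 dim non-receptor genes 4 were below 0, with a median of -0.17, where 51.3% of all dim genes were below 0. Over all measured members the medians were -0.10 for receptor type and -0.14 for non-receptor type. Dim members at least 1.5-fold lower were PTPRZ1, PTPN21 and PTPN7, 3 of 21, and 7.91% of all dim genes passed that threshold. None of the 21 dim members was 1.5-fold higher, against 7.75% of all dim genes. Over all 37 members this made 1 higher, against 4.53% of all genes, and 3 lower, against 4.62%.

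**Figure D2:**
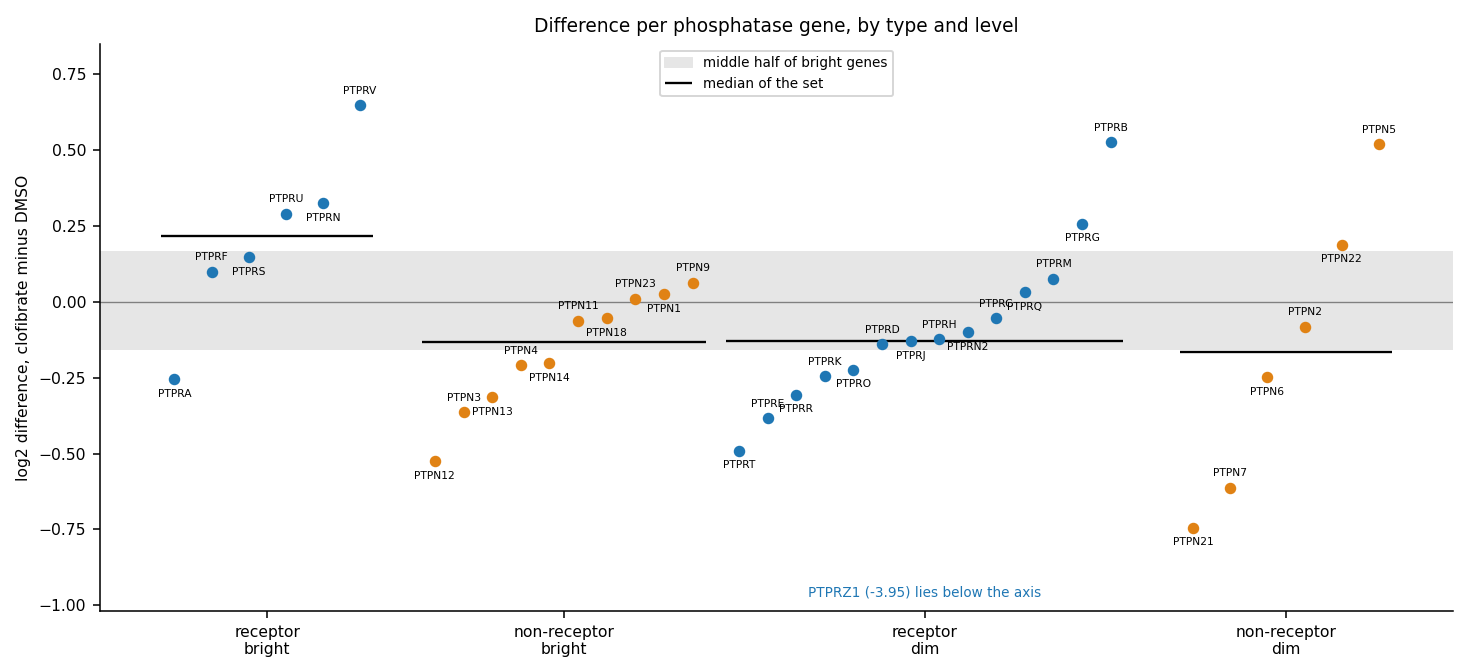
Log2 difference, clofibrate minus DMSO, of each phosphatase gene, split by type and by level; black lines are set medians and the grey band is the range between the quartiles of all bright genes (-0.16 to 0.17). Bright receptor-type genes lie mostly above 0 (median 0.22) and bright non-receptor genes mostly below it (median -0.13), while both dim sets have medians below 0; PTPRZ1 at -3.95 lies off the axis.

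PTPRZ1, a receptor with a carbonic anhydrase-like ectodomain that binds pleiotrophin, midkine and contactin and is best known from glia, is the member with the largest difference. Its single row (NM_002851, hg18 chromosome 7, 121300642 to 121489326) read 5.29 with clofibrate and 9.24 with DMSO, a difference of -3.95, where the like-level SD was 0.49. The clofibrate value lay below the random probes, so the row was at least 12.6-fold lower with clofibrate. With every value floored at the random probes the difference was -3.65, and PTPRZ1 ranked lowest of all 23595 genes with and without that floor. Earlier results on these arrays had already singled this gene out, so the value is a description and supports nothing further. PTPRG, the other receptor with a carbonic anhydrase-like domain, read 7.69 with clofibrate and 7.43 with DMSO. Its rows differed by 0.47 and 0.04, the opposite side of 0 from PTPRZ1 but within the like-level SD of 0.44 as a gene.

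Ligands of PTPRZ1 did not share 1 direction. Midkine (MDK) read 13.17 with clofibrate and 13.02 with DMSO, a difference of 0.15 with its 4 rows between -0.11 and 0.29. Pleiotrophin (PTN) was near background at 5.88 with clofibrate and 5.89 with DMSO. CNTN1, a contactin, read 8.99 with clofibrate and 9.20 with DMSO, a difference of -0.22 that is smaller than its like-level SD of 0.28. Among the tenascins, matrix proteins that bind PTPRZ1, TNR was dim at 6.34 with clofibrate and 7.63 with DMSO (-1.29), and TNC was dim at 5.95 with clofibrate and 5.80 with DMSO (0.15). The contactins that bind PTPRG were dim as well and lay on both sides of 0. CNTN4 read 5.71 with clofibrate and 7.04 with DMSO (-1.33), while CNTN3 read 6.84 with clofibrate and 5.55 with DMSO (1.29), the DMSO value being below the random probes. CNTN5 (0.53) and CNTN6 (-0.14) were below them on both arrays. Of 11 markers of neurons and glia, 8 were above the random probes on both arrays, with summed linear levels of 9358 with clofibrate and 8351 with DMSO. SNAP25 was below them on both, and the marker furthest from 0, OLIG2, differed by 0.66. The part of such RNA in the PTPRZ1 value was not tested.

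The start regions of 3 genes are shown because these members carry the extremes: PTPRZ1, and, of bright members with a single start in the RefSeq promoter table, the lowest (PTPN12) and the highest (PTPRU). Each run covers 250 bases before to 50 after the start, from RefSeq on GRCh38.p14, and lies on the plus strand: chr7:121872911-121873210 for PTPRZ1, chr7:77537793-77538092 for PTPN12 and chr1:29236272-29236571 for PTPRU. Capitals mark any GGGCGG (the GC box), TATAAA (the TATA box) or AGGTCA (the core site bound by PPAR and other nuclear receptors) on either strand.
PTPRZ1: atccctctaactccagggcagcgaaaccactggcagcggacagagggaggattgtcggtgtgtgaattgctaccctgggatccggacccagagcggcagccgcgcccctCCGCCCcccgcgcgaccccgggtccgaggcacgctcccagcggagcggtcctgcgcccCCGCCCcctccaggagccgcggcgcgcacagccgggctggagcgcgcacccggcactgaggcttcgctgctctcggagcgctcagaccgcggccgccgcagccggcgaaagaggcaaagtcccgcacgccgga
PTPN12: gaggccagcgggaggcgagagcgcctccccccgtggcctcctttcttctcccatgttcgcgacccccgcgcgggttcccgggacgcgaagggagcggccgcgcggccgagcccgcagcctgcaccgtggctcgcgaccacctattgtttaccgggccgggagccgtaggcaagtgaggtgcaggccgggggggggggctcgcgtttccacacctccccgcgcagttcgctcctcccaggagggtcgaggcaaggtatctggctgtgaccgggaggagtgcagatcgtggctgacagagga
PTPRU: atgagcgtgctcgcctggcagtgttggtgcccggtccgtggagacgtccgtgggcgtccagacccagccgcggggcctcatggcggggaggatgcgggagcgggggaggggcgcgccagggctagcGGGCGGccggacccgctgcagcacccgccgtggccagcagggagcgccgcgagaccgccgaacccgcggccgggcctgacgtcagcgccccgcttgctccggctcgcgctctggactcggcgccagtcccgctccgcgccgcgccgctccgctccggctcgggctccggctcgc

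All 3 windows are rich in G and C, at 73.3% for PTPRZ1, 71.0% for PTPN12 and 78.7% for PTPRU, where the median of 35116 RefSeq promoters of this length was 58.7%. GGGCGG occurs 2 times in the PTPRZ1 window and 1 time in that of PTPRU, and the PTPN12 window holds none of the 3 motifs. The table held 49 promoters of 31 of the 37 genes. GGGCGG was in 51.0% of these 49 and in 45.0% of all promoters, TATAAA in 10.2% and 11.5%, and AGGTCA in 8.16% and 13.8%. The 4 member promoters with AGGTCA were those of PTPN3 (1 of its 4 starts), PTPN5 (both starts) and PTPN21. The direct repeat DR1, the classical PPAR-RXR element of AGGTCA, any 1 base and AGGTCA again, was in 0 of the 49 and in 0.0228% of all promoters. A match or its absence describes these letters in this window only.

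**Figure D3:**
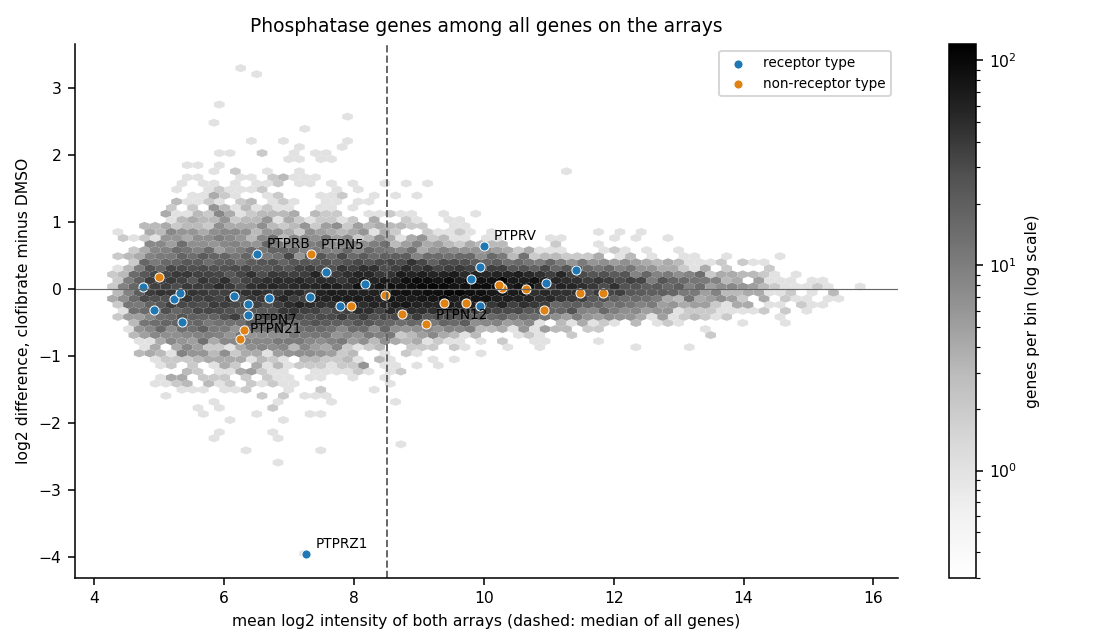
Difference, clofibrate minus DMSO, against mean log2 intensity for all genes (grey bins, log-scaled counts) with receptor-type (blue) and non-receptor (orange) phosphatases on top; the dashed line is the median level of all genes. PTPRZ1 at -3.95 lies below every other gene, while PTPRV at 0.65 is the phosphatase furthest above 0.

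The LAR group of receptors, which bind heparan and chondroitin sulfate proteoglycans and organise adhesions and synapses, held bright genes that were slightly higher with clofibrate. PTPRF (LAR), which sits at cell-cell and cell-matrix contacts, read 11.01 with clofibrate and 10.91 with DMSO, a difference of 0.10. Its rows differed by 0.19, 0.19 and -0.08. PTPRS, the sigma receptor, read 9.87 with clofibrate and 9.73 with DMSO, a difference of 0.15 with rows at 0.24, 0.21 and -0.01. In each gene the row nearest 0 was also its dimmest one, and neither difference exceeded its like-level SD (0.22 for PTPRF and 0.25 for PTPRS). PTPRD, their neuronal relative, averaged 5.16 with clofibrate and 5.30 with DMSO, below the random probes.

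The MAM-domain receptors bind their own kind on neighbouring cells and act on catenins. PTPRU read 11.57 with clofibrate and 11.28 with DMSO (NM_005704, hg18 chromosome 1, 29435610 to 29525899), a difference of 0.29 against a like-level SD of 0.21. The other 3 members were dim, and their rows did not share a side of 0. PTPRK, known as a brake on EGFR signalling, had a row Z70660 at 8.76 with clofibrate and 9.32 with DMSO, a difference of -0.55, and a row NM_002844 at 6.56 with clofibrate and 6.50 with DMSO. Both rows span nearly the same stretch of chromosome 6, so the gene mean of -0.25 averages unlike probes. PTPRM, its homophilic relative, had a row NM_002845 at a linear intensity of 511 with clofibrate and 379 with DMSO, a log2 difference of 0.43, and a row BC051651 at 171 with clofibrate and 207 with DMSO, a log2 difference of -0.28. PTPRT, a mostly neuronal receptor, was at background on the clofibrate array in both rows, and its row AB006621 was at least 1.40-fold lower with clofibrate.

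The short-ectodomain pair read lower with clofibrate in every row. PTPRA, which activates Src family kinases by clearing their inhibitory tyrosine, read 9.81 with clofibrate and 10.07 with DMSO, a difference of -0.26 against a like-level SD of 0.25. It was the only bright receptor-type gene below 0. PTPRE, its close relative, read 6.17 with clofibrate and 6.56 with DMSO, with rows at -0.54, -0.47 and -0.14, the last of them at background on both arrays. Its mean difference of -0.38 was within the like-level SD of 0.49.

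PTPRN and PTPRN2 encode dense-core vesicle proteins of neuroendocrine and islet cells that are autoantigens in type 1 diabetes and lack normal phosphatase activity. PTPRN read 10.10 with clofibrate and 9.78 with DMSO (hg18 chromosome 2, 219862588 to 219882387), a difference of 0.33 against a like-level SD of 0.25. PTPRN2 was dim, with rows at 0.52 and -0.72. Of 8 neuroendocrine and islet markers, 6 were above the random probes on both arrays and 2 were bright: SYP (-0.04) and PAX6 (-0.09). The marker furthest from 0 was GCG, dim at 7.17 with clofibrate and 6.46 with DMSO (0.71), and the median over the 8 was -0.02. Their part in the PTPRN value was not tested. CHGB and NEUROD1 were not above them on either array, and the summed level of the 8 was 6706 with clofibrate and 6957 with DMSO.

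Receptors built of fibronectin repeats were nearly all dim. The bright one was PTPRV, which is a transcribed pseudogene in the human RefSeq table (PTPRVP) and encodes a phosphatase of bone and testis in mouse. Its row XM_086287 read 10.33 with clofibrate and 9.68 with DMSO, a difference of 0.65 or 1.57-fold, the highest among the 37 and 2.72 times its like-level SD of 0.24. A pseudogene row is open to cross-hybridisation, and that was not tested. Without PTPRV the bright receptor-type median was 0.15, with 4 of 5 genes above 0. PTPRV lies 7.43 kb from PTPN7 on chromosome 1 (hg18), and PTPN7 lay on the other side of 0.

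PTPRB, the vascular endothelial phosphatase that acts on TIE2 and VE-cadherin, was dim at 6.77 with clofibrate and 6.24 with DMSO. Its 4 rows did not share a side of 0. AK126121 (hg18 chromosome 12, 69271780 to 69317487) read 8.20 with clofibrate and 6.76 with DMSO, a difference of 1.44 or 2.71-fold. BC051329, which covers nearly the same stretch, read 6.21 with clofibrate and 5.34 with DMSO, at least 1.52-fold higher because its DMSO value lay below the random probes. The other rows, NM_002837 and BC101679, end at 69289891 and 69289890 and differed by -0.36 and 0.15. The rows with the higher differences reach beyond that point, AK126121 to within 0.640 kb of the neighbouring gene PTPRR. These positions are spans of overlapping transcripts and do not show where the probes lie, so the differences cannot be tied to a position. As a gene PTPRB differed by 0.53, 1.02 times its like-level SD. PTPRR itself was at background on both arrays (4.76 with clofibrate and 5.07 with DMSO). The endothelial markers PECAM1, TEK and TIE1 were at background, 4 of 7 were above it on both arrays and 0 of 7 were bright, with summed levels of 595 with clofibrate and 634 with DMSO. Of those above background CDH5 (VE-cadherin) differed by 0.72, and VWF (-0.45), ESAM (-0.44) and KDR (-0.43) lay on the other side of 0, with a median of -0.22 over the 7. Their part in the PTPRB values was not tested.

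The remaining fibronectin-repeat receptors lay within their like-level SD as genes. PTPRJ, a suppressor of growth in epithelia, read 8.20 with clofibrate and 8.48 with DMSO in row NM_002843, a difference of -0.27, and its other row was at background. PTPRH, found on gut epithelium, had rows at -0.18 and -0.06. PTPRO, the podocyte phosphatase, had rows at -1.04, -0.50 and 0.87, and the last of these was at background on both arrays. PTPRQ, a hair cell protein, read 4.77 with clofibrate and 4.74 with DMSO, below the random probes on both.

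Phosphatases best known from blood cells were dim. PTPRC (CD45), which all nucleated blood cells carry, read 5.30 with clofibrate and 5.35 with DMSO, and of its 4 rows only NM_002838 was above the random probes on both arrays. PTPN22, which restrains T cell receptor signalling, had all 3 rows at background on both arrays. PTPN7, a lymphoid phosphatase that holds ERK and p38 through a kinase interaction motif, had rows at 5.78 and 6.23 with clofibrate, against 6.55 and 6.69 with DMSO. The row differences were -0.77 and -0.46, and the gene difference was -0.61. PTPN6 (SHP-1) read 7.84 with clofibrate and 8.09 with DMSO, with rows at -0.34 and -0.16. PTPN5 (STEP), the neuronal enzyme with the same kinase interaction motif as PTPN7 and PTPRR, was on the other side of 0, at 7.60 with clofibrate and 7.08 with DMSO, with rows at 0.67 and 0.37. The differences of PTPN7 and PTPN5 were -1.25 and 1.07 times their like-level SD. Among the leukocyte markers ITGB2 differed by 0.86 and SPI1 by -1.06, so markers of these cells lay on both sides of 0.

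The non-receptor genes furthest below 0 among bright members belonged to the PEST and FERM groups. PTPN12 (PTP-PEST), which takes phosphate off p130Cas and paxillin at focal adhesions, read 8.84 with clofibrate and 9.37 with DMSO, a difference of -0.53, or 1.44-fold lower. Its rows, BC050008 and NM_002835 (hg18 chromosome 7, 77004350 to 77107324 for the first), differed by -0.50 and -0.56, and the gene difference was -1.89 times the like-level SD of 0.28. PTPN18, the PEST-type phosphatase that acts on ERBB2, read 11.45 with clofibrate and 11.50 with DMSO, with rows at 0.11 and -0.22.

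All 5 FERM-domain phosphatases, which sit beneath the membrane at junctions, lay below 0, and so did all 8 of their rows. Among all genes, 47.9% of bright ones and 51.3% of dim ones were below 0. PTPN3 read 8.56 with clofibrate and 8.92 with DMSO, a difference of -0.36 with rows at -0.54, -0.35 and -0.20. PTPN13, a large scaffold phosphatase with several PDZ domains, read 10.77 with clofibrate and 11.08 with DMSO, a difference of -0.31, or -1.42 times its like-level SD of 0.22. PTPN4, which like PTPN3 pairs a FERM with a PDZ domain, read 9.63 with clofibrate and 9.84 with DMSO, a difference of -0.21. PTPN14, a partner of the Hippo effector YAP, read 9.28 with clofibrate and 9.49 with DMSO, with rows at -0.27 and -0.14. PTPN21, the dim one, read 5.87 with clofibrate and 6.62 with DMSO, a difference of -0.74 against a like-level SD of 0.50. The grouping was looked at with these values known, and each difference other than those of PTPN3, PTPN13 and PTPN21 was smaller than its own like-level SD. The 4 bright members were long genes, with a median span of 206 kb against 16.9 kb for all bright genes. With the trend of difference over span removed, as described below, PTPN3 was at -0.29, PTPN13 at -0.23, PTPN4 at -0.12 and PTPN14 at -0.12.

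The non-receptor phosphatases best known from growth factor and insulin signalling were close to 0. PTPN1 (PTP1B), the insulin receptor phosphatase of the endoplasmic reticulum, read 10.29 with clofibrate and 10.26 with DMSO. PTPN2 (TC-PTP), its relative that acts on JAK kinases and STAT factors, read 8.45 with clofibrate and 8.53 with DMSO and had rows at 0.32, -0.25 and -0.31, with the first of these its dimmest. PTPN11 (SHP2), which relays growth factor signals to RAS, read 11.81 with clofibrate and 11.87 with DMSO. PTPN9, which binds phosphoinositides through a Sec14 domain, read 10.27 with clofibrate and 10.20 with DMSO, and PTPN23, an endosomal sorting protein, read 10.65 with clofibrate and 10.64 with DMSO. None of these 5 differed by more than its like-level SD as a gene.

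**Figure D4:**
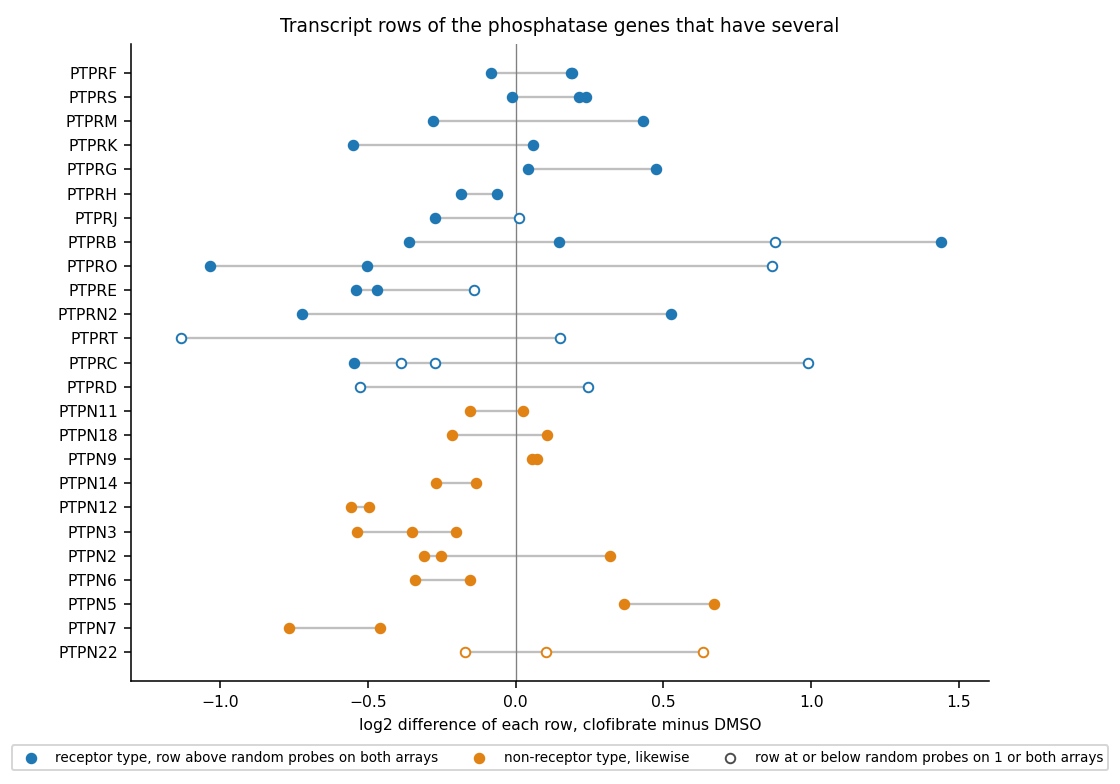
Log2 difference, clofibrate minus DMSO, of every transcript row of the 25 phosphatase genes that have more than 1 row; open points are rows at or below the random probes on 1 or both arrays. Rows of PTPN12, PTPN3, PTPN14 and PTPN7 all lie below 0 and both rows of PTPN5 above it, while the rows of PTPRB, PTPRO, PTPRC and PTPRN2 spread over both sides.

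Rows of the same gene share 1 RNA extract per array and are no replicates of the treatment, but they show how far probes for a gene differ. Of the 25 members with more than 1 row, 10 had all rows on 1 side of 0, against 46.3% of all such genes. Among the receptor type it was 3 of 14 and among the non-receptor type 7 of 11. Among bright members it was 4 of 8, all of them non-receptor, against 51.0% of bright genes, and among dim members 6 of 17, against 40.8% of dim genes. Both bright receptor-type genes with several rows, PTPRF and PTPRS, had a row just below 0. The other 4 bright receptor-type genes rested on 1 row each.

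Genes of longer span tended to read lower across these arrays, and the phosphatases are long. Over the 16 bright members Spearman's rho between hg18 span and difference was -0.57, and over all 11798 bright genes it was -0.18, both as descriptions across genes that share the same 2 arrays. The bright members of longest span, PTPN13 (220 kb), PTPN4 (218 kb), PTPN14 (194 kb) and PTPRA (174 kb), were all below 0. PTPRN (19.8 kb) and PTPRV (21.7 kb), among the shortest, were the furthest above it, while PTPN18 (18.5 kb), the shortest, was at -0.05. The median span was 85.2 kb for bright receptor-type and 97.1 kb for bright non-receptor genes. Within the types rho was -0.89 over the 6 bright receptor-type genes and -0.39 over the 10 bright non-receptor genes. After removal of the trend over all bright genes the medians were 0.26 for receptor type and -0.10 for non-receptor type, and PTPN12 was at -0.45. This takes out the trend of all bright genes only, so any steeper relation among the phosphatases was left in.

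**Figure D5:**
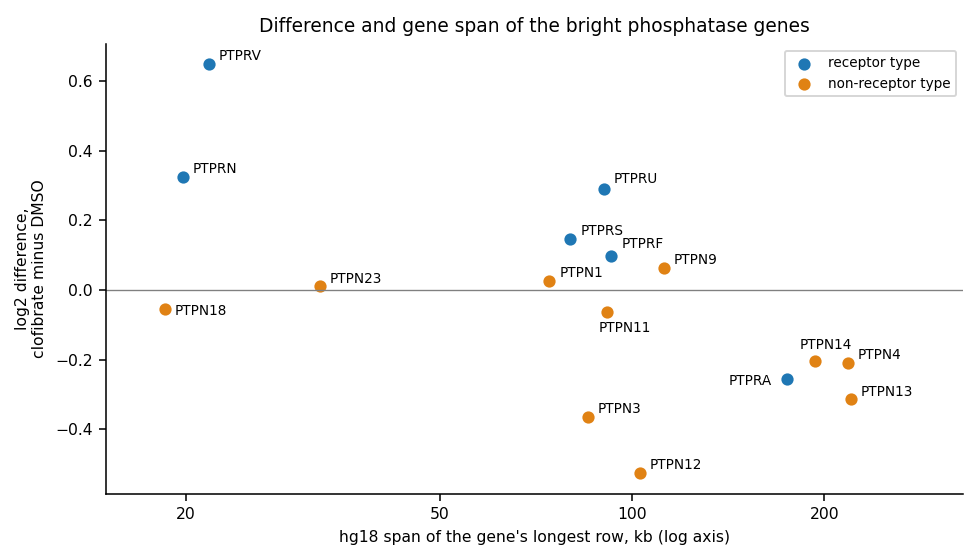
Log2 difference, clofibrate minus DMSO, against hg18 span (log axis, kb) for the 16 bright phosphatase genes. The genes of longest span (PTPRA, PTPN14, PTPN4 and PTPN13) lie below 0, and at middle spans receptor-type genes (blue) lie above the non-receptor genes (orange).

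Other phosphatase families and the proteins these enzymes act on were read beside them. Of 14 bright dual-specificity phosphatases, 10 were above 0, against 52.1% of all bright genes, with a median of 0.13. The 1.5-fold threshold was passed by 3: 2 were higher, against 1.31% of all bright genes, and 1 lower, against 1.32%. DUSP22, which acts on JNK signalling and LCK, read 9.89 with clofibrate and 9.04 with DMSO (0.85). DUSP12, a zinc-binding member, read 8.94 with clofibrate and 8.31 with DMSO (0.63). SSH2, a slingshot phosphatase that activates cofilin, read 9.15 with clofibrate and 10.01 with DMSO (-0.86). Each of these rests on 1 row, and taking each gene's brightest row gave a list median of -0.038. A list of other phosphatases and related proteins had 14 bright members, of which 7 were above 0, with a median of -0.02. It also holds the EYA proteins, which use an aspartate, PTPLA (HACD1) and PTPLB (HACD2), which are acyl-CoA dehydratases, and STYX, an inactive relative. Without these, 5 of 10 bright cysteine phosphatases were above 0 and the median was again -0.02. EYA4, a phosphatase and transcriptional coactivator, was at -0.54 with its 4 rows between -0.60 and -0.46. PTP4A1 (-0.33) had all 3 rows below 0, and CDC14A (-0.27) all 5.

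The tyrosine kinases that the phosphatases oppose had medians near 0. For 12 bright cytosolic kinases it was -0.02, with TNK2 at 0.40 (rows at -0.10 and 0.90), JAK1 at -0.38 and YES1 at -0.36, and with SRC at 0.20. For 15 bright receptor tyrosine kinases it was 0.06, with ERBB2 at 0.37 and DDR1 at 0.23. The 20 bright docking proteins and substrates had a median of 0.00 with 10 on each side, led by VCP (0.33), MAGI3 (-0.32) and CDH2 (-0.28). The 19 bright ligands and partners of receptor-type phosphatases had a median of -0.01, led by PPFIA1 (-0.36), which encodes the liprin that binds LAR, SDC4 (-0.33), a heparan sulfate proteoglycan, and GPC4 (0.24). In these 4 lists 0 bright genes reached 1.5-fold in either direction. Of all bright genes only 1.31% were that much higher and 1.32% that much lower, and 52.1% were above 0.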

How the data were processed

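Per the labels, 1 culture of each pretreatment was hybridised to a NimbleGen 1-colour array with Cy3. The authors deposited linear intensities. RMA is named in the submitters' processing notes, without settings. RMA commonly gives arrays 1 shared distribution, which would hide a shift of most genes. Per the file headers, each of the 73 member rows summarised 3 probes, and positions are on hg18. The series matrix held the same intensities as the per-array files. A further column, undefined in the header, was left out.

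Log2 was taken of each intensity and rows of a symbol were averaged. Current symbols came from RefSeq (GRCh38.p14), where 38916 rows found a match, and members kept the symbol in the files. The like-level SD came from 40 equal bins of level over all genes. Alternatives were median centring, quantile normalization, a lowess on level (fraction 0.3), the brightest row, a floor at the random probes, other level filters, a 2-fold threshold and, chosen after seeing the data, removal of the trend with span, leaving out PTPRV, brightness on either array and a list without genes that are not cysteine phosphatases. The counting rule was also run on simulated data, from which no result is given or used here. All members are named, and of related lists those at least 1.5-fold different, otherwise the 3 furthest from 0, among bright genes; MDK, PTN, SRC, contactins and tenascins were named for their roles, the last ones after their values were seen. Some genes of these lists are not reported here. Members, lists and groupings were chosen with earlier results of these data known. Tools were matplotlib 3.10.9, scipy 1.17.1, statsmodels 0.14.6, pandas 2.3.3, numpy 2.4.6 and Python 3.11.15.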

Additional observations from a re-analysis of the deposited data

How the results depend on the processing

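Median centring, quantile normalization, the lowess on level, the floor at the random probes and the series matrix values left the medians of both types within 0.1 and the counts of 1.5-fold members unchanged. The brightest row of each gene kept the split of both types (0.21 for receptor type and -0.20 for non-receptor type) but gave -0.038 for dual-specificity and -0.13 for the list of other phosphatases. It also moved 4 dim members by more than their like-level SD: PTPRB to 1.44, PTPRC to -0.55, PTPRN2 to -0.72 and PTPRT to -1.13. With all measured members the receptor-type median was -0.10, the medians of both types differed by 0.043, and 3 members were at least 1.5-fold lower. With members above the random probes on both arrays the receptor-type median was 0.075 and 2 members were at least 1.5-fold lower. With members kept from the 75th percentile of level up, 3 receptor-type and 6 non-receptor genes remained. All 3 receptor-type genes were above 0 (median 0.29), and 3 of the 6 non-receptor genes were below it (median -0.022). The median of cytosolic tyrosine kinases was then 0.12. With members bright on either array, where PTPRZ1 and PTPN2 joined by their DMSO values only, the medians of both types differed by 0.23. In that set 1 member was at least 1.5-fold lower. No bright member was 1.5-fold higher without PTPRV, and 0 were 2-fold higher. Removal of the trend with span put PTPN11 at 0.01. The cause of these shifts was not tested beyond the change of genes or rows itself. No paired analysis was possible because clofibrate and DMSO had a single array each, which also meant that leaving out an array gave no comparison.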

Other observations

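PTPN20B falls outside the naming rule because of its last letter, and its values were looked up after the results above. The gene, a testis-type non-receptor phosphatase, had 12 rows, of which 3 were above the random probes on both arrays, and 9 of the 12 were below 0. Among all dim genes, counted as genes and not as rows, 51.3% were below 0. The row AY704148 read 8.35 with clofibrate and 7.96 with DMSO (0.40), while AY704150 read 5.51 with clofibrate, below the random probes, and 7.14 with DMSO, the lowest difference of the 12 at -1.63. The row median was -0.26. PTPDC1, a phosphatase of the centrosome and cilium that is also outside the rule, had rows at 0.87 and -0.32.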
